A study of Mus musculus with 18 samples.

Results

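The genes examined here encode Krüppel-like factors (KLFs), a family of zinc finger transcription factors. They were chosen by symbol from a list of 10 genes (Klf2, Klf3, Klf4, Klf6, Klf7, Klf9, Klf10, Klf11, Klf13 and Klf16), all of which were found among the 16909 genes of the deposited table. All 10 passed the filter on low counts that left 12465 genes for testing. The data are 18 libraries of polyadenylated RNA, all from mouse macrophages of bone marrow origin. UVABs (5 libraries) and STSABs (5 libraries) were macrophages given apoptotic bodies (ABs), the membrane-bound fragments shed by dying cells, from mesenchymal stem cells that the labels call hucMSC. Cell death had been induced by UV for UVABs and by STS for STSABs, and the labels class both as anti-inflammatory treatments. The LPS group (5 libraries) received lipopolysaccharide, a bacterial cell wall product, as the positive control for inflammation, and Con (3 libraries) was the mock group. Libraries 4 and 5 of UVABs carry a shorter spelling of the group name that the design text equates with it. The labels do not state whether the AB groups also received LPS, nor a dose or a time. They do not say that libraries of a group came from separate mice or cultures, so the p-values cover no more than the variation among these libraries, and that variation may be technical.

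KLFs bind GC-rich DNA and CACCC boxes through C2H2 zinc fingers at the carboxyl end and differ in the parts that recruit cofactors. KLF2, KLF4, KLF6 and KLF7 belong to the branch best known for activation through acetyltransferases, KLF3 to the branch that represses through CtBP proteins, and KLF9, KLF10, KLF11, KLF13 and KLF16 to the branch that recruits the Sin3A and histone deacetylase complex. In myeloid cells KLF2 and KLF4 are known as restraints on NF-κB-driven inflammation, whereas KLF6 is known from mouse macrophages as a factor that works with NF-κB.

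The promoters of the 4 genes on which the results turn are shown for what they hold around the start of transcription: Klf7 and Klf2, which were higher in the AB groups than in LPS, and Klf4 and Klf6, the genes with the largest fall and the largest rise in LPS. The sequences are RefSeq's on build GRCm38.p6, from 250 bases before to 50 after the start, written 5′ to 3′ on the strand of the gene. Capitals mark matches on either strand to the KLF core CACCC, shown as its reverse complement where it lies on the other strand, to the hypoxia response core ACGTG and to the MEF2 pattern. The regions are chr1:64121340-64121639 (minus strand) for Klf7, chr8:72318812-72319111 (plus strand) for Klf2, chr4:55532426-55532725 (minus strand) for Klf4 and chr13:5861239-5861538 (plus strand) for Klf6.
Klf7: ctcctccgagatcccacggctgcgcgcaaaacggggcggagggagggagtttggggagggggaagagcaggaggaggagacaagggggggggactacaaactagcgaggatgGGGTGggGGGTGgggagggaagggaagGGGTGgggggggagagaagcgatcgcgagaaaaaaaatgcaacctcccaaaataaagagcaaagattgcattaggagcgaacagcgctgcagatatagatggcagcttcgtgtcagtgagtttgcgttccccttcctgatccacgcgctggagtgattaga
Klf2: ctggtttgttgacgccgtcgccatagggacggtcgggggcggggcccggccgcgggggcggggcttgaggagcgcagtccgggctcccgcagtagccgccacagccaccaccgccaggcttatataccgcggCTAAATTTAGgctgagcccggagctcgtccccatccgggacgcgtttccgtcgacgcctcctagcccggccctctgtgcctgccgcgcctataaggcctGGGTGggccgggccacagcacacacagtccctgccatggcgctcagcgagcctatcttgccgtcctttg
Klf4: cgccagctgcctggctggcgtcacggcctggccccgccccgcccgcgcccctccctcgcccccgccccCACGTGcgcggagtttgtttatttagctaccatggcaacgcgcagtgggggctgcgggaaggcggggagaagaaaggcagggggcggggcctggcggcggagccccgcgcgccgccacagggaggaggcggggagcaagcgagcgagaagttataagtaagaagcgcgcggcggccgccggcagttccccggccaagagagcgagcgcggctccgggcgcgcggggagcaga
Klf6: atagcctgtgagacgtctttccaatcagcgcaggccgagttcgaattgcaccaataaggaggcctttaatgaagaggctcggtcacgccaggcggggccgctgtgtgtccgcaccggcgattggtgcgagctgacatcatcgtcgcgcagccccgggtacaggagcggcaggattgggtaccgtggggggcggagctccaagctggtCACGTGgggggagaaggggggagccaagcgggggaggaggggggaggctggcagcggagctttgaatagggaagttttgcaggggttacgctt
The Klf7 promoter held 3 CACCC matches between positions -138 and -111, counting the start as 0. The Klf2 promoter held 1 CACCC match at -19 and a MEF2 pattern at -118, a pattern found in 0.557% of all 32851 promoters of the same length. In Klf4 and Klf6 the capitals spell a palindrome, so that ACGTG matched once on each strand with overlap, at -182 and -181 in Klf4 and at -43 and -42 in Klf6.

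Of the 8 members with an entry in the promoter table (Klf10 and Klf16 had none), 5 held CACCC, against 57.5% of all promoters, and 4 held ACGTG (Klf4, Klf6, Klf9 and Klf11), against 19.6%. The NF-κB pattern GGGNNNNNCC was found in 6 of 8, against 50.8%, the GAS pattern TTCNNNGAA in Klf9 alone, against 8.3%, and the SRF CArG box in none, against 1.63%. Neither the ISRE pattern GAAANNGAAA (3.44% of all promoters) nor the CRE palindrome TGACGTCA (1.79%) was found in any of the 8. All patterns were searched on both strands, and some NF-κB matches overlapped each other or a CACCC match. The 8 promoters had 58.3% to 77.7% G and C bases, above the median of 52.7% for all promoters. These matches are descriptions of letters and not of binding.

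The libraries held 17588357 to 18675283 estimated counts each. Scaling mattered for every comparison against Con, because the mean TMM factor (trimmed mean of M-values, a correction for RNA composition) was 0.928 in UVABs, 0.932 in STSABs and 0.902 in LPS, against 1.51 in Con. The median change of all genes in LPS against Con was -0.03 on the log2 scale with TMM, -0.31 with upper-quartile scaling and -0.78 with library totals alone, and the share of calls that were higher was 48.2%, 36% and 21.2% under the 3 scalings. All 12 macrophage markers were detected and tested in these libraries, with summed levels of 11200 to 12700 CPM (counts scaled with TMM to a common library size) in UVABs, 10500 to 11500 in STSABs, 13000 to 14500 in LPS and 11300 to 12200 in Con.

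Klf6 was the most abundant member in every group when levels were divided by exon length. On that scale Klf6 averaged 102 ± 14.2 CPM per kb in UVABs, 101 ± 11.5 in STSABs, 123 ± 4.66 in LPS and 57.1 ± 2.24 in Con (SD; n = 5 in each treated group and 3 in Con). Klf13 came next in every group, with 8.47 ± 0.24 CPM per kb in UVABs, 8.52 ± 0.45 in STSABs, 7.19 ± 0.52 in LPS and 18.8 ± 1.98 in Con. The order below them differed between groups. Klf4 ranked 3 of 10 in Con, at 15.1 ± 0.57 CPM per kb, and the lowest of the 10 in UVABs (1.65 ± 0.25), STSABs (1.53 ± 0.37) and LPS (1.73 ± 0.17). Klf7 ranked 3 of 10 in UVABs (7.18 ± 0.68 CPM per kb) and STSABs (7.24 ± 0.64), 5 of 10 in LPS (3.47 ± 0.13) and 7 of 10 in Con (5.73 ± 0.57). Neighbours in the middle of the order, such as Klf16, Klf7 and Klf10 in LPS at 3.77 ± 0.43, 3.47 ± 0.13 and 3.42 ± 0.07 CPM per kb, lay within their spread.

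**Figure D1:**
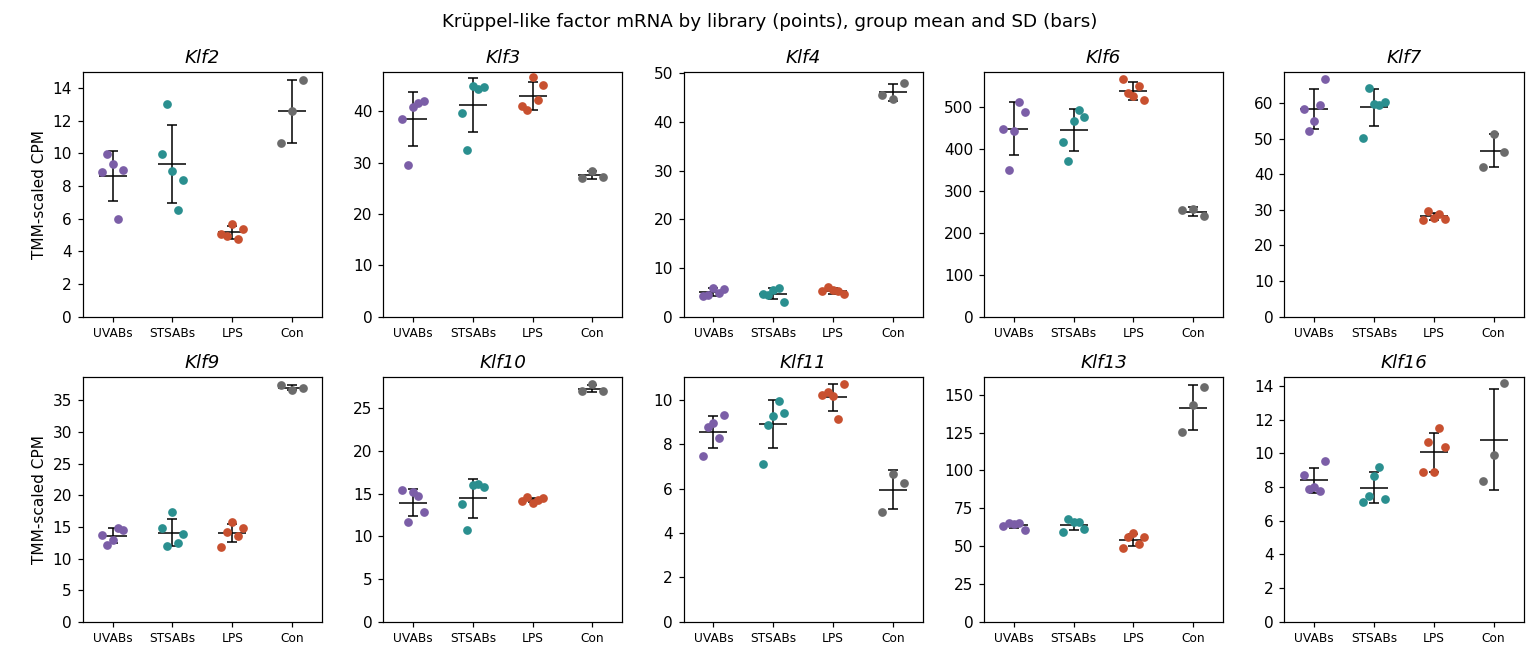
Level of each Krüppel-like factor gene in TMM-scaled CPM (vertical axes, each from 0) in the UVABs, STSABs, LPS and Con libraries (points), with the group mean and SD (bars, n = 5, 5, 5 and 3). Klf4 lay at 44.7 CPM or more in the 3 Con libraries and at 6.0 or less in the 15 others, and all 10 AB libraries lay above all 5 LPS libraries for Klf7.

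LPS against Con asked how the inflammation control differed from mock cells. Klf4 fell by 3.13 on the log2 scale in LPS, the most of the 10, and Klf9, Klf13, Klf2, Klf10 and Klf7 fell with it, while Klf6, Klf11 and Klf3 rose. Klf16 did not pass the test. In all, 9 of 10 members were called by edgeR's quasi-likelihood test at a Benjamini-Hochberg adjusted p of 0.05 or less, 3 higher and 6 lower in LPS. The background was high, since 83% of all genes tested were called, 40% higher and 43% lower, so the count of members is close to that of any gene. The ranges of the 2 groups did not overlap for the same 9 members, against 80% of all genes. The median change of the 10 members was -0.83 on the log2 scale, against -0.03 over all genes tested. The members were chosen with earlier results of these data known, so this median describes the list and not the KLF family. The other KLF genes tested did not fall, with 1.0 ± 0.15 for Klf8, 0.93 ± 0.41 for Klf12 and 0.04 ± 0.26 for Klf5. Klf12 and Klf5 were low, at 0.35 and 0.99 CPM in LPS. Because these are bulk samples, fewer cells of a type and less RNA per cell cannot be told apart.

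Among the activator branch, Klf4, which in macrophages is known to promote alternative activation, had 5.15, 6.0, 5.45, 5.16 and 4.54 CPM in LPS, against 45.5, 44.7 and 48.0 CPM in Con. No LPS library came near the Con libraries. Klf4 was 8.74-fold lower in LPS (log2 fold change -3.13 ± 0.12 SE, adjusted p = 1.42e-16), and its change was larger in size than that of 93.3% of all genes tested. Klf2, known for keeping myeloid and endothelial cells quiescent, had 5.09, 4.91, 5.70, 4.74 and 5.34 CPM in LPS, against 10.6, 12.6 and 14.5 CPM in Con. The Con libraries were spread more widely than the LPS libraries, with no overlap. Its log2 fold change was -1.29 ± 0.16 (adjusted p = 2.27e-07).

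Klf6 moved the other way and had 568, 534, 526, 550 and 516 CPM in LPS, against 255, 258 and 240 CPM in Con. Every LPS library lay far above every Con library, and the log2 fold change was 1.10 ± 0.10 (adjusted p = 7.42e-10). Under each of the other scalings the Klf6 rise in LPS against Con stayed called, at its smallest 0.36 with library totals alone. Klf7, a factor studied mostly in neurons and adipocytes, had 27.2, 29.6, 27.7, 28.9 and 27.6 CPM in LPS, against 42.1, 51.4 and 46.3 CPM in Con. The LPS libraries lay close together, all below Con, and the log2 fold change was -0.73 ± 0.08 (adjusted p = 3.14e-08).

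Klf3, the CtBP-recruiting repressor of the list, averaged 43.0 ± 2.75 CPM in LPS and 27.6 ± 0.71 CPM in Con (log2 fold change 0.64 ± 0.10, adjusted p = 6.86e-06), a rise that turned to -0.10 with library totals alone. Of the Sin3A branch, Klf11 was the only one to rise in LPS, with 10.1 ± 0.60 CPM in LPS and 5.95 ± 0.88 CPM in Con (0.77 ± 0.11, adjusted p = 1.08e-06), and its value with library totals alone was 0.02 and not called. Klf13, known for its part in T cell chemokine expression, had 49.0, 56.2, 58.5, 51.2 and 56.0 CPM in LPS, against 126, 143 and 155 CPM in Con. All 5 LPS libraries lay below the 3 Con libraries by a wide gap (-1.38 ± 0.07, adjusted p = 8.43e-15).

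Klf9, a glucocorticoid-responsive gene, averaged 14.1 ± 1.46 CPM in LPS and 37.0 ± 0.41 CPM in Con (-1.40 ± 0.09, adjusted p = 4.85e-12). Klf10, first described as a TGF-β-inducible early gene, averaged 14.3 ± 0.28 CPM in LPS and 27.3 ± 0.43 CPM in Con (-0.94 ± 0.10, adjusted p = 9.06e-09). Neither gene's groups overlapped. Klf16 had 8.92, 10.7, 8.88, 11.5 and 10.4 CPM in LPS, against 8.36, 9.89 and 14.2 CPM in Con. The ranges overlapped and library 3 of Con was far above the other Con libraries. Its log2 fold change was -0.10 ± 0.13 (adjusted p = 0.485) and 0.14 without library 3 of Con, and Klf16 was called lower with upper-quartile scaling (-0.38, adjusted p = 0.0113) and with library totals alone (-0.85, adjusted p = 3.94e-06).

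Markers of other cell types also moved between these groups, in which 40% of all genes tested were called higher and 43% lower in LPS. The 7 dendritic cell markers, 5 of which could be tested, summed to 2450 to 2740 CPM in LPS and 212 to 234 CPM in Con, most of it Ccr7, a chemokine receptor that averaged 2490 CPM in LPS and 142 CPM in Con. Of the 5 tested, 2 were called higher and 2 lower in LPS, the lower ones including Cd209a, at 2.86 CPM in LPS and 41.8 CPM in Con. The 6 endothelial markers, 4 of them tested, summed to 450 to 549 CPM in LPS and 71.5 to 74.4 CPM in Con, most of it Kdr, and Tek was at 0 in Con. Of the 4 tested, 2 were called higher and 1 lower, the lower one being Vwf, at 10.9 CPM in LPS and 28.2 CPM in Con. The 10 neutrophil markers, all tested, summed to 1820 to 2530 CPM in LPS and 1200 to 1500 CPM in Con, a sum led by S100a8, S100a9 and Ngp. Of these 10 markers 6 were called higher and 3 lower, among the lower ones the receptor gene Cxcr2, at 2.52 CPM in LPS and 14.2 CPM in Con. With library totals alone the neutrophil counts were 1 higher and 4 lower, the dendritic counts 1 and 3 and the endothelial counts 1 and 2. Under that scaling 89.6% of all genes were called, and 21.2% of those calls were higher. The T and NK cell, B cell, stromal and erythroid lists stayed at a sum of 11.1 CPM or less in every library of both groups, with Cd3e among the markers at 0 in LPS and Ncr1, Lum, Hbb-bs and Alas2 among those at 0 in Con. Their part in the KLF changes was not tested.

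**Figure D2:**
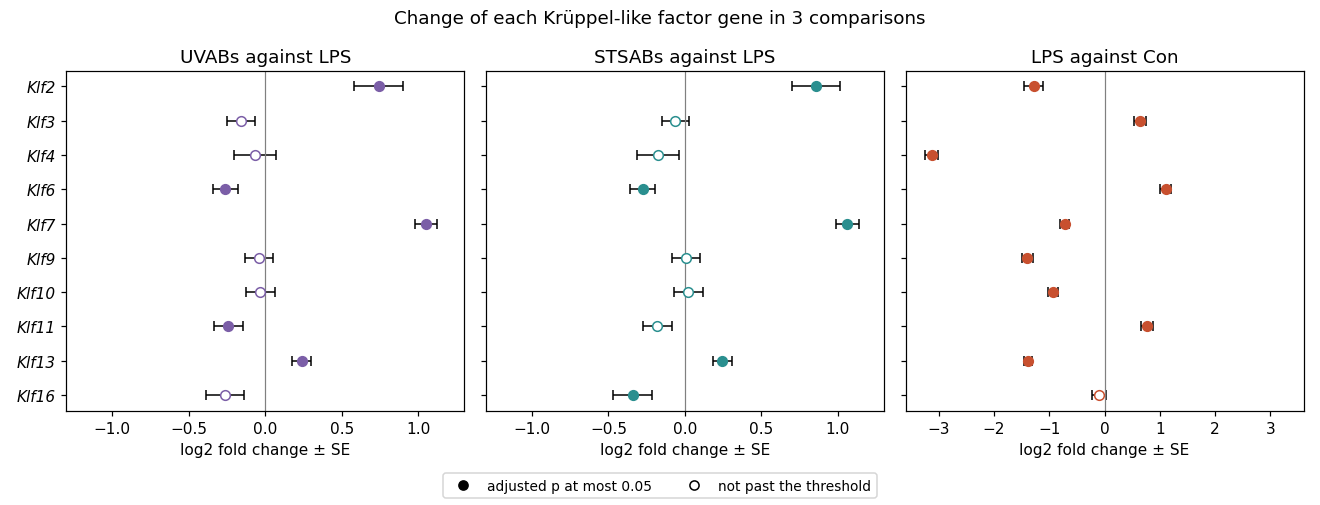
Log2 fold change with its SE (horizontal axis) of each member for UVABs against LPS, STSABs against LPS and LPS against Con, filled where edgeR's adjusted p was 0.05 or less and open otherwise, with a wider axis in the LPS against Con panel. Klf7 lay at 1.05 and 1.06 in the AB panels and at -0.73 in the panel of LPS against Con, while Klf4 lay near 0 in the AB panels and at -3.13 in that of LPS against Con. With library totals alone, Klf3 in LPS against Con turned to -0.10 and Klf10 in UVABs against LPS to 0.01.

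The AB groups, which the labels class as anti-inflammatory treatments, were compared with the inflammation control. Klf7 stood out in both comparisons: it was 2.07-fold higher in UVABs and 2.09-fold higher in STSABs than in LPS. Klf2 and Klf13 were also higher in both AB groups, and Klf6 was lower in both. Klf4, Klf9 and Klf10, which were among the genes that fell in LPS against Con, gave no call in either AB comparison. With edgeR, 5 of 10 members were called in UVABs against LPS (3 higher, 2 lower), against a background of 57.4% of all genes (28.6% higher, 28.8% lower), and 5 of 10 in STSABs against LPS (3 higher, 2 lower), against 57.4% (28.4% higher, 29% lower). The members' median log2 change was -0.05 in UVABs and -0.03 in STSABs, against 0.00 and -0.01 over all genes. Ranges without overlap were found for 4 members in each comparison (Klf2, Klf6, Klf7 and Klf13), against 42.3% of all genes for UVABs and 42.5% for STSABs. The 2 comparisons share the same 5 LPS libraries, so their likeness is not independent evidence.

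Klf7 had 58.2, 52.2, 55.1, 59.5 and 66.8 CPM in UVABs and 50.2, 64.4, 59.8, 59.6 and 60.3 CPM in STSABs, against 27.2 to 29.6 CPM in LPS. Every AB library was far above every LPS library. The log2 fold change was 1.05 ± 0.07 in UVABs (adjusted p = 1.43e-10) and 1.06 ± 0.07 in STSABs (adjusted p = 1.21e-10), and its size was above that of 93.4% of all genes in each comparison. By p, Klf7 ranked 169 of 12465 genes for UVABs and 160 for STSABs.

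Klf2 had 8.85, 9.94, 9.32, 6.0 and 8.99 CPM in UVABs and 9.96, 13, 8.92, 6.55 and 8.34 CPM in STSABs, against 4.74 to 5.70 CPM in LPS. All AB libraries lay above LPS, with library 4 the lowest in both AB groups. The log2 fold change was 0.74 ± 0.16 in UVABs (adjusted p = 0.000462) and 0.86 ± 0.16 in STSABs (adjusted p = 8.8e-05). Klf13 had 63.2, 65.5, 64.4, 65.1 and 61.0 CPM in UVABs and 59.6, 67.6, 65.9, 66.2 and 61.6 CPM in STSABs, against 49.0 to 58.5 CPM in LPS. The groups lay close to each other but did not overlap. Klf13 changed by 0.24 ± 0.06 in UVABs (adjusted p = 0.00198) and by 0.24 ± 0.06 in STSABs (adjusted p = 0.00149).

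Klf6 had 448, 351, 444, 514 and 489 CPM in UVABs and 418, 371, 467, 494 and 478 CPM in STSABs, against 516 to 568 CPM in LPS. The highest AB library, library 4 of UVABs, fell just short of the lowest LPS library, and library 2 was the lowest in both AB groups. Klf6 changed by -0.26 ± 0.08 in UVABs (adjusted p = 0.00948) and by -0.27 ± 0.08 in STSABs (adjusted p = 0.00692).

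The remaining 2 calls were weak and differed between the AB groups. Klf11, a second TGF-β-inducible factor, had 7.46, 8.80, 8.97, 8.27 and 9.34 CPM in UVABs and 7.13 to 9.94 CPM in STSABs, against 9.13 to 10.7 CPM in LPS. The groups overlapped. It was called lower in UVABs (-0.24 ± 0.10, adjusted p = 0.0354) and not in STSABs (-0.18 ± 0.09, adjusted p = 0.105), and the call in UVABs was lost without LPS library 1, 2, 3 or 5 or UVABs library 1 or 4, with the adjusted p at 0.0544 to 0.0984, with library totals alone (-0.20, adjusted p = 0.0809) and with libraries 1 to 3 alone (-0.28, adjusted p = 0.089). Klf16 had 7.74 to 9.58 CPM in UVABs and 7.13, 7.48, 8.68, 9.18 and 7.28 CPM in STSABs, against 8.88 to 11.5 CPM in LPS. It was called lower in STSABs (-0.34 ± 0.13, adjusted p = 0.0259) and not in UVABs (-0.26 ± 0.13, adjusted p = 0.0798), and the call in STSABs was lost without LPS library 2 or 4 or STSABs library 1 or 5, with the adjusted p at 0.0535 to 0.0733, with library totals alone (-0.29, adjusted p = 0.0553) and with libraries 1 to 3 alone (-0.28, adjusted p = 0.194). In UVABs Klf16 was called without Con library 1 or 3, with the adjusted p at 0.0483 and 0.0258.

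Klf4 averaged 5.02 ± 0.76 CPM in UVABs and 4.66 ± 1.14 CPM in STSABs, against 5.26 ± 0.53 CPM in LPS, and gave log2 fold changes of -0.07 ± 0.14 (adjusted p = 0.698) and -0.17 ± 0.14 (adjusted p = 0.294). Klf9 averaged 13.6 ± 1.14 CPM in UVABs and 14.1 ± 2.12 CPM in STSABs, against 14.1 ± 1.46 CPM in LPS, with log2 fold changes of -0.04 ± 0.09 and 0.00 ± 0.09. Klf10 averaged 14 ± 1.62 CPM in UVABs and 14.5 ± 2.29 CPM in STSABs, against 14.3 ± 0.28 CPM in LPS, with log2 fold changes of -0.03 ± 0.09 and 0.02 ± 0.09. Klf3 gave -0.16 ± 0.09 (adjusted p = 0.134) and -0.06 ± 0.09 (adjusted p = 0.573). All 4 overlapped LPS in both AB groups, and a p above the threshold does not show that the levels were equal.

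The neutrophil markers were also higher in the AB groups. Their sum was 3190 to 4210 CPM in UVABs and 3250 to 4720 CPM in STSABs, against 1820 to 2530 CPM in LPS, and 8 of the 10 were called higher in UVABs, against 28.6% of all genes, and 10 in STSABs, against 28.4%. S100a8, S100a9 and Ngp made up most of it, and Ly6g averaged 7.71 CPM in UVABs and 7.80 CPM in STSABs, against 4.78 CPM in LPS. The dendritic list, led by Ccr7, summed to 2740 to 3390 CPM in UVABs and 2780 to 3360 CPM in STSABs, against 2450 to 2740 CPM in LPS, and the endothelial list, with Tek at 0 in both AB groups, to 431 to 642 CPM in UVABs and 469 to 642 CPM in STSABs, against 450 to 549 CPM in LPS. In each AB comparison 4 of the 5 dendritic markers tested were called higher and none lower, and 2 of the 4 endothelial markers were called higher and 1, Vwf, lower (-0.57 in UVABs and -0.61 in STSABs). Of all genes, 28.8% were called lower in UVABs and 29% in STSABs. The T and NK cell, B cell, stromal and erythroid lists each summed to 14.7 CPM or less in every AB library, with Hbb-bs and Alas2 among the markers at 0 in UVABs and Cd3e and Alas2 among those at 0 in STSABs. Their part in the KLF differences was not tested.

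UVABs against STSABs asked whether the way cell death was induced mattered. No member was called by edgeR, and neither was any other gene (0% of 12465). At an unadjusted p below 0.05 edgeR gave 198 genes (1.59%) and no member, with a smallest member p of 0.286 for Klf3, and DESeq2 and limma-voom also made no call. All 10 members overlapped between the 2 AB groups, against 0.345% of all genes without overlap. The fit behind these values did not pair libraries. With same-numbered libraries of the 2 groups paired, a choice made after seeing the data, edgeR still called 0 genes. At an unadjusted p below 0.05 the paired edgeR fit gave 457 of 11732 genes (3.9%), among them Klf3 (-0.10, unadjusted p = 0.0236). Without pairing, the 95% interval of the log2 difference, UVABs minus STSABs, ran from -0.16 to 0.13 for Klf7, from -0.13 to 0.12 for Klf13 and from -0.16 to 0.18 for Klf6. The widest were those of Klf2, from -0.42 to 0.19, and Klf4, from -0.18 to 0.40.

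Set against Con, all 10 members were called in UVABs and in STSABs, 4 higher and 6 lower in each, against a background of 82.6% of genes in both comparisons (40.2% higher and 42.4% lower in UVABs, 40% higher and 42.6% lower in STSABs). Ranges did not overlap for 9 members in UVABs (77.7% of all genes) and for 7 in STSABs (77.6%). These comparisons share the 3 Con libraries with LPS against Con. Klf4 was 9.16-fold lower in UVABs and 9.87-fold lower in STSABs than in Con (log2 fold changes -3.20 ± 0.12 and -3.30 ± 0.12). Klf2, at 8.62 ± 1.53 CPM in UVABs and 9.36 ± 2.39 CPM in STSABs, stayed below the 12.6 ± 1.93 CPM of Con, with -0.55 ± 0.15 in UVABs (adjusted p = 0.00271) and -0.43 ± 0.15 in STSABs (adjusted p = 0.014), and the call in STSABs was lost without Con library 3 (-0.31, adjusted p = 0.1) and with libraries 1 to 3 alone (-0.24, adjusted p = 0.117). Klf13 gave -1.15 ± 0.07 and -1.14 ± 0.07.

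With TMM, Klf7 lay below Con in LPS and above Con in both AB groups. It averaged 58.3 ± 5.52 CPM in UVABs and 58.8 ± 5.23 CPM in STSABs, against 46.6 ± 4.65 CPM in Con. Its log2 fold change was 0.32 ± 0.08 in UVABs (adjusted p = 0.000862) and 0.34 ± 0.08 in STSABs (adjusted p = 0.000617), but 0.05 and 0.07 without a call under upper-quartile scaling and -0.38 and -0.36 with library totals alone. The direction of Klf7 against Con therefore rests on the scaling, whereas its rise against LPS lay between 0.98 and 1.11 under every alternative run. Klf16 was called lower than Con in UVABs (-0.36 ± 0.14, adjusted p = 0.0169) and in STSABs (-0.44 ± 0.14, adjusted p = 0.00491), and without Con library 3 neither call held (-0.12, adjusted p = 0.36, and -0.20, adjusted p = 0.135).

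**Figure D3:**
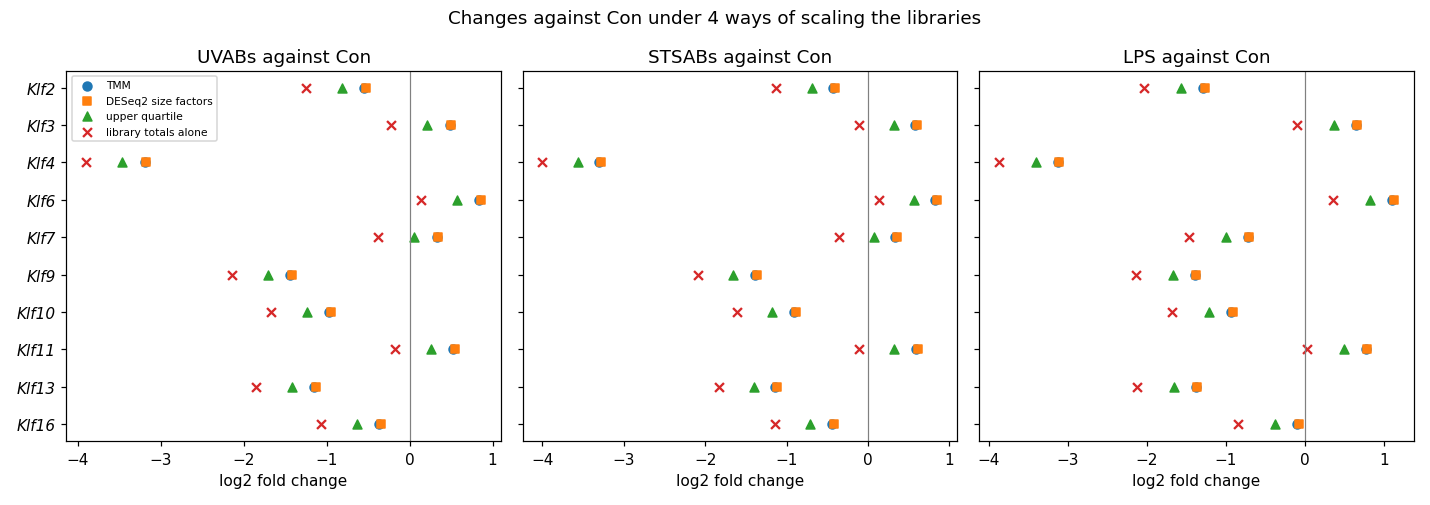
Log2 fold change of each member against Con (horizontal axis) in UVABs, STSABs and LPS under TMM, DESeq2 size factors, upper-quartile scaling and library totals alone (symbols). Library totals alone moved every member toward lower values, so that Klf3 turned negative in all 3 panels (-0.22, -0.12 and -0.10) and Klf7 (-0.38 and -0.36) and Klf11 (-0.18 and -0.11) in the AB panels, while Klf4 lay below -3 under all 4 scalings.

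Shares within the family do not depend on how libraries are scaled. Each member's count was divided by its exon length and given as a percentage of the sum over the 10 members in the same library. Klf6 made up 73.4 ± 2.50% of the family in UVABs and 72.9 ± 2.45% in STSABs, against 79.6 ± 1.21% in LPS, where it ranged from 78.6% to 81.5%, and 45.5 ± 2.60% in Con. Klf4 made up 1.19 ± 0.17% in UVABs and 1.10 ± 0.25% in STSABs, against 1.12 ± 0.11% in LPS and 12 ± 0.47% in Con. Klf7 made up 5.18 ± 0.35% in UVABs and 5.24 ± 0.69% in STSABs, against 2.25 ± 0.09% in LPS and 4.56 ± 0.36% in Con. On this scale the AB libraries still lay above all LPS libraries for Klf7, from 4.74% up, and their ranges met that of Con (4.26% to 4.96%). Klf13 made up 6.17 ± 0.84% in UVABs and 6.17 ± 0.66% in STSABs, against 4.67 ± 0.43% in LPS and 14.9 ± 1.21% in Con. Klf2 made up 3.43 ± 0.92% in UVABs and 3.73 ± 1.29% in STSABs, against 1.81 ± 0.16% in LPS and 5.41 ± 0.70% in Con. A share shows unequal change among members and not that any one of them stayed the same.

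**Figure D4:**
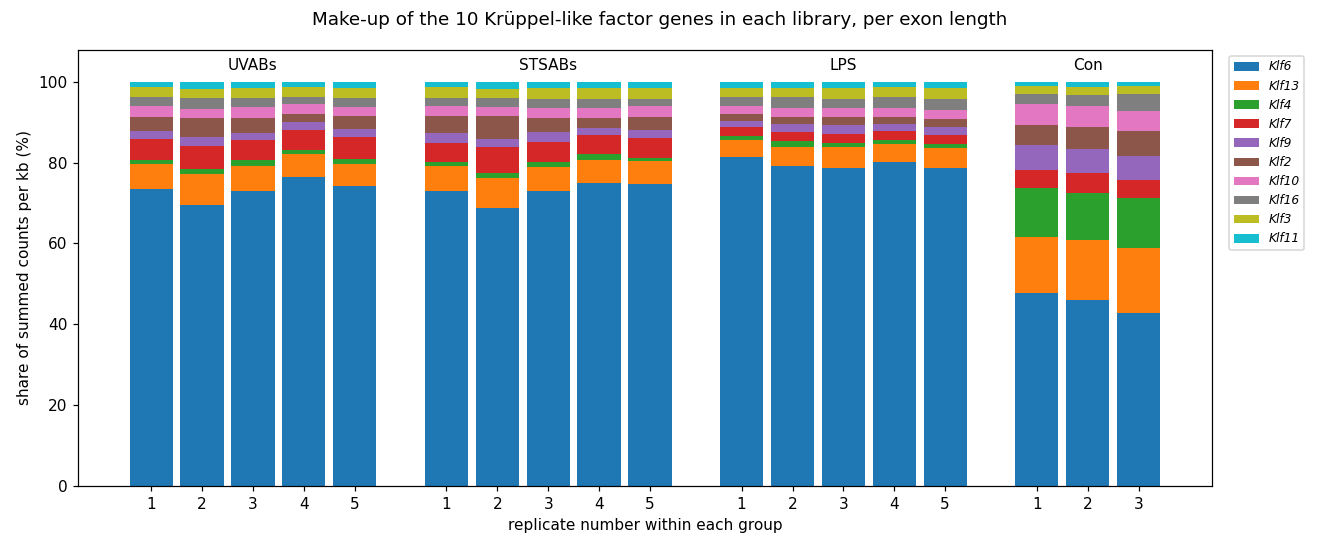
Share of each member in the summed counts per kb of the 10 genes (vertical axis, %) in every library, by replicate number within UVABs, STSABs, LPS and Con. Klf6 fills 68.9% to 76.5% of the AB bars, 78.6% to 81.5% of the LPS bars and 42.7% to 47.8% of the Con bars, and Klf4 is wide in Con alone.

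Within the AB groups, library 2 stood at the edge of the range for most members. In UVABs it was the lowest of 5 for Klf3, Klf6, Klf7, Klf9 and Klf10 and the highest for Klf2 and Klf13. In STSABs it was the lowest for Klf3, Klf6, Klf9 and Klf10 and the highest for Klf2, Klf7 and Klf13. Library 2 also stood furthest from its group over the genes with 20 or more counts in a pair of libraries. Chi-square over its degrees of freedom was 19.8 to 30.9 for STSABs pairs with library 2 and 3.14 to 9.04 for the others. In UVABs it was 23.5 to 33.4 for pairs with library 2 and 2.52 to 7.92 for the others. Among the members, other libraries also held places at the edge, though for fewer genes. Library 4 of STSABs was the lowest for 1 member and the highest for 5, and library 5 of UVABs for 1 and 4. With library 2 of both AB groups left out, the members called in UVABs and in STSABs against LPS again numbered 5 and 5, against 59% and 58.6% of all genes.

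Members were also compared by their pattern over the 18 libraries, as the root mean square difference between log2 CPM values after each gene was centred on its own mean. The most alike were Klf3 and Klf6 (0.17), Klf3 and Klf11 (0.18) and Klf9 and Klf13 (0.20), and the least alike were Klf4 and Klf6 (1.55). Among 12139 genes, the one closest to Klf7 was Dennd11 (0.10), which averaged 20.8 CPM in UVABs and 20.7 CPM in STSABs, against 10.1 CPM in LPS and 16.8 CPM in Con, followed by Cyfip2 (0.12) and Esr1 (0.13), the oestrogen receptor gene. The nearest to Klf4 was Clec10a (0.23), a galactose-binding lectin gene, with 9.61 CPM in UVABs and 10.4 CPM in STSABs, against 11.2 CPM in LPS and 90.7 CPM in Con. Klf6 lay closest to Lims1 (0.05) and Med13 (0.06), Klf2 to Ssbp4 (0.17) and Klf13 to Scarb1 (0.08), the HDL receptor gene. These distances describe likeness of level over libraries that share groups, and carry no test.

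The other KLF and SP genes give the context of the family. Of 16 listed relatives, 15 were in the table and 8 were tested. In LPS against Con 4 were higher and 2 lower, or 75% against the 83% of all genes. Sp6, an epithelial SP factor, had 110 to 141 counts a library in LPS, against 1 to 3 in Con, so that its size of change rests on 5 counts in Con, and it was lower than LPS in UVABs (-0.74 ± 0.13) and STSABs (-0.76 ± 0.13). Klf8, a CtBP-branch repressor, was higher in LPS than in Con (1.0 ± 0.15, not called with library totals alone at 0.26) and lower than LPS in UVABs (-0.50 ± 0.13) and STSABs (-0.42 ± 0.13). Klf12, also of the CtBP branch, was at 0.95 ± 0.24 CPM in UVABs and 0.75 ± 0.15 CPM in STSABs, against 0.35 ± 0.13 CPM in LPS (1.42 ± 0.28 and 1.07 ± 0.30, the second not called with libraries 1 to 3 alone, at 0.78). Sp1, the widely expressed founder of the SP genes, was higher than LPS by 0.28 ± 0.08 in both AB groups, and the call in STSABs was lost with libraries 1 to 3 alone (0.17, adjusted p = 0.104). In each AB comparison with LPS 6 of 8 relatives were called, 3 higher and 3 lower, or 75% against 57.4% of all genes. Klf1, Klf14, Klf15, Sp5, Sp7, Sp8 and Sp9 had at most 4 counts in any library.

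Of 18 cofactors and turnover factors of KLF proteins, all tested, 9 were higher and 6 lower in LPS than in Con (83.3%, against 83% of all genes), 7 and 5 in UVABs against LPS (66.7%) and 6 and 5 in STSABs against LPS (61.1%), both against 57.4% of all genes. Kat2b, an acetyltransferase, rose by 1.82 ± 0.10 on the log2 scale in LPS against Con, and Hdac1 and Sin3b, parts of the Sin3 deacetylase complex, by 1.56 ± 0.04 and 1.28 ± 0.06. Against LPS, Ctbp1, the partner of the KLF3 branch, was lower in UVABs (-0.38 ± 0.04) and STSABs (-0.39 ± 0.04), and Sin3a was higher (0.30 ± 0.06 and 0.34 ± 0.06).

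Of 20 genes known to act upstream of KLF genes, 8 were higher and 12 lower in LPS than in Con, or 100% against 83% of all genes. Nfkb1 rose by 2.72 ± 0.05, and the TGF-β receptor gene Tgfbr1, Egr1 and Egr2 changed by -3.57 ± 0.10, -3.46 ± 0.15 and -2.67 ± 0.08. Against LPS, 12 of 20 were called in UVABs (7 higher, 5 lower) and 11 in STSABs (7 higher, 4 lower), or 60% and 55%, against 57.4% of all genes. Egr1 was higher in UVABs (1.07 ± 0.14) and STSABs (1.02 ± 0.15), Stat6 likewise (0.32 ± 0.04 and 0.29 ± 0.04), and Nfkb1 lower (-0.35 ± 0.04 and -0.34 ± 0.04). The MEK5, ERK5 and MEF2 cascade, known in endothelial cells to drive Klf2, was singled out from this list after its values were seen, so its counts are a description. Its 5 genes, Map2k5 (-0.63 ± 0.08), Mapk7 (-0.36 ± 0.06), Mef2a (-0.38 ± 0.07), Mef2c (-0.72 ± 0.10) and Mef2d (-1.56 ± 0.10), were all lower in LPS than in Con, a direction that 43% of all genes shared. Against LPS, 3 of the 5 were higher in UVABs and STSABs (28.6% and 28.4% of all genes), with Mef2d at 0.48 ± 0.10 and 0.46 ± 0.10, Mef2c at 0.33 ± 0.09 and 0.30 ± 0.09 and Mapk7 at 0.22 ± 0.06 and 0.20 ± 0.06. Map2k5 and Mef2a were not among the genes called higher than LPS in either AB group. The part of the cascade in the Klf2 differences was not tested.

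Of 29 genes reported as KLF targets, 28 were tested, and 15 were higher and 9 lower in LPS than in Con, or 85.7% against 83% of all genes. The list holds genes that other factors are known to regulate too, so its count is no measure of KLF activity. Il6 averaged 1339 ± 44.5 CPM in LPS and 3.80 ± 0.50 CPM in Con, and was lower than LPS in UVABs (-0.56 ± 0.05) and STSABs (-0.63 ± 0.05). These differences were small beside the rise of Il6 in LPS against Con, so both AB groups stayed far above Con. The chemokine gene Ccl2 was likewise lower in UVABs (-1.37 ± 0.10) and STSABs (-1.46 ± 0.10) than in LPS, as was Cebpd (-0.96 ± 0.06 and -0.81 ± 0.06). Tsc22d3, which encodes the glucocorticoid-induced leucine zipper protein, fell by 2.15 ± 0.11 on the log2 scale in LPS against Con and was higher than LPS in UVABs (1.44 ± 0.11) and STSABs (1.49 ± 0.10). In all, 17 of 28 were called in UVABs against LPS (8 higher, 9 lower) and 16 of 28 in STSABs against LPS (7 higher, 9 lower), or 60.7% and 57.1%, against 57.4% of all genes.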

How the data were processed

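Per the labels' protocols, the 18 libraries of polyadenylated macrophage RNA carried dUTP in the second strand and were read from both ends. The deposited values are estimated counts per gene (6.35% of values were not whole, none of them among the KLF genes). HISAT2 and the mm39 build are named, per the submitters' processing notes. The sources used here do not give the counting tool, its strand setting or its annotation, so reads of a gene and an antisense partner cannot be told apart, and counting may split reads between near copies. Counts were rounded, filtered with filterByExpr (12465 of 16909 genes, 99.97% of counts) and scaled with TMM. All groups were fitted together with edgeR 4.0.16 in R 4.3.3 (quasi-likelihood test, Benjamini-Hochberg adjustment over all genes tested, threshold 0.05). The SE of a log2 fold change is its size over the root of its F statistic. CPM values are TMM-scaled, and group values are means ± SD. Alternatives were DESeq2 1.42.0, limma 3.58.1 (voom), other scalings, filters, fits and sets of libraries. The fit was also run on simulated counts with a single fixed spread and few changed genes, all of them in LPS. That run cannot speak to the scaling against Con.

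Levels per kb used merged exon lengths from GENCODE vM21. Promoter sequences are RefSeq's on GRCm38.p6, another build than that named for the files, which hold no coordinates. A protein table was not used here. The members and gene lists were chosen with earlier results of these data known. Named were all 10 members, the KLF and SP relatives, up to 4 genes of each other list with the smallest adjusted p in a comparison, and the 3 genes nearest in pattern to a member, with predicted genes left out. The MEK5, ERK5 and MEF2 genes and the cell type markers were named outside this rule, after their values were seen. A few genes of these lists are not reported here by name. Libraries of a group differed by more than sampling noise (chi-square over its degrees of freedom 2.3 to 33.4), so none was taken as a duplicate. The highest values were those of pairs with library 2 of an AB group. Same-numbered libraries of UVABs and STSABs deviated together (correlation 0.116 to 0.54 over 5 pairs), most at numbers 2 (0.54) and 4 (0.288). Pairs of other numbers reached 0.154 (library 5 of STSABs with library 4 of UVABs), above numbers 1, 3 and 5 (0.116, 0.129 and 0.137). The numbers were still taken to pair these 2 groups, a pairing read from the data and not from the labels. The numbers paired neither of them with LPS or Con. Intervals have a 95% confidence level.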

Additional observations from a re-analysis of the deposited data

Results flagged for a closer look

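Within each group of 5 libraries, the highest and lowest value of each member were screened for a gap to the next library of more than 0.71 of the range, a limit that chance passes in about 1 in 20 groups. Of 30 groups screened, 2 passed. Klf2 in UVABs had its lowest value in library 4, at 6.0 CPM, against 8.85 CPM in the next lowest and 9.94 CPM in the highest library. Klf3 in UVABs had its lowest value in library 2, at 29.5 CPM, against 38.6 CPM in the next lowest and 41.9 CPM in the highest library. Their causes were not tested.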

How the results depend on the processing

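The number of members called kept within 1.5 times of its value in all 6 comparisons and under every alternative run. Of 1810 alternative values of single members, 1737 kept direction and call, 24 lost the call, 6 gained it and 43 changed sign. Over all groups the same-numbered deviations correlated at -0.09 to 0.54, above 0.1 in 6 of 24 pairs, and those of other numbers at up to 0.174, above 0.1 in 6 of 96. With a replicate block in a fit of only UVABs and STSABs, chosen after seeing the data, edgeR called 0 members and 0 genes. Of 11732 genes, 457 had an unadjusted p below 0.05 there, among them Klf3 (-0.10, edgeR adjusted p = 0.997). With a replicate block over all groups, 6 members were called in UVABs against LPS in place of 5, against 59.8% of all genes. Klf3 was added (-0.17, edgeR adjusted p = 0.0403), and the other counts were the same. With only the groups compared in the fit, 6 members were called in UVABs against LPS, against 59.3% of all genes. Klf16 was the member added (-0.25, edgeR adjusted p = 0.0323).

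Library totals alone changed the sign of Klf3 in LPS (-0.10), STSABs (-0.12) and UVABs (-0.22) against Con, of Klf7 in STSABs (-0.36) and UVABs (-0.38), of Klf11 in STSABs (-0.11) and UVABs (-0.18) against Con and of Klf10 in UVABs against LPS (0.0090). Members called against Con were then 7 in UVABs, 7 in STSABs and 8 in LPS, 0, 0 and 1 of them higher, against 88.5%, 88.4% and 89.6% of all genes (22.7%, 22.8% and 21.2% of those calls higher). Klf6 kept its sign against Con but lost its edgeR call in UVABs (0.14, adjusted p = 0.193) and STSABs (0.13, adjusted p = 0.213). Under upper-quartile scaling 8 (2 higher), 9 (3 higher) and 10 (3 higher) were called, against 83.9%, 84% and 83.6% of all genes (36.7%, 36.5% and 36% of those calls higher). The other sign changes were in values near 0: Klf9 in STSABs against LPS with limma-voom (-0.0014). With replicates 1 to 3 only, they were Klf10 in STSABs against LPS (-0.066) and, in UVABs against STSABs, Klf4 (-0.0032), Klf6 (-0.015) and Klf10 (0.059). Without both AB libraries numbered 2, they were Klf3 in STSABs against LPS (0.013), Klf10 in UVABs against LPS (0.026), and Klf7 (0.059) and Klf13 (0.0016) in UVABs against STSABs. The causes were not tested.

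Leaving out single libraries gave, in UVABs against STSABs, ranges of -0.22 to 0.027 for Klf2, -0.022 to 0.20 for Klf4, -0.048 to 0.089 for Klf6, -0.065 to 0.025 for Klf7, -0.099 to 0.038 for Klf9, -0.14 to 0.0032 for Klf10 and -0.034 to 0.011 for Klf13. In UVABs against LPS they were -0.098 to 0.0014 for Klf9 and -0.069 to 0.026 for Klf10, in STSABs against LPS -0.094 to 0.013 for Klf3, -0.080 to 0.057 for Klf9 and -0.018 to 0.11 for Klf10, and in LPS against Con -0.26 to 0.14 for Klf16. For the named genes outside the list of 10, 1704 of 1707 alternative values kept direction and call and 3 lost the call. Members near 5 to 10 CPM (Klf2, Klf4, Klf11 and Klf16) had the widest errors.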
